A study of Homo sapiens with 20 samples.

Results

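The cytosolic heat shock genes followed here are 10 genes chosen by symbol, namely HSPA1A, HSPA1B, HSPA6, HSPA8, HSPH1, HSP90AA1, HSPB1, DNAJB1, BAG3 and HSF1. They were found by Ensembl identifier among the genes listed in every library, and all 10 passed the filter on low counts in each comparison. RNA was sequenced from NTERT cells, human keratinocytes immortalized with hTERT, that were grown to confluence and harvested in 4 groups of 5 libraries. WT unwounded and WT HDW cells carried a control guide RNA, and GCN2KO unwounded and GCN2KO HDW cells were an early-passage pool edited with CRISPR/CAS9 in EIF2AK4, the gene of the eIF2α kinase GCN2. The labels name a low-calcium growth medium, and the study's description of HDW has confluent cells differentiated with calcium and serum before wounding. Whether the unwounded cells received that treatment is not given in the sources used here. HDW (high-density wounding) is a grid of scratches drawn with pipet tips across the well, and RNA was extracted 6 h after it. A pool can hold unedited cells, and which of the 2 guides described for GCN2 made the sequenced pool is not given in the sources used here. The labels say that cells were plated in 5 replicates but not whether these came from separate passages, so p-values measure the spread between these samples, which may be technical.

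Heat shock proteins are chaperones that bind unfolded stretches of other proteins, keep them from aggregating and help them refold. HSP70 proteins do this in cycles of ATP hydrolysis that J-domain proteins such as DNAJB1 start and exchange factors such as HSPH1 and BAG3 end, HSP90 acts on nearly folded clients such as kinases and receptors, and small heat shock proteins such as HSPB1 hold clients without ATP. In unstressed cells the transcription factor HSF1 is held inactive by chaperones, and upon proteotoxic stress it forms trimers that bind heat shock elements in the promoters of these genes. HSPB1 is abundant in differentiating epidermis, where keratinocytes use it in the assembly of the cornified layer.

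The depth of the libraries was 14083504 to 34611570 counts, and it was lower in WT unwounded cells (median 23685751) than in the other 3 groups (medians 33981257 to 34209033). The targeted gene EIF2AK4 fitted the labels in all 20 libraries, at 3980.2 to 4555 normalized read counts in WT and 806 to 961.6 in GCN2KO libraries. Keratinocyte markers were present in every library, KRT5 at means of 233782 to 389797 and TP63 at 8094 to 12016 normalized read counts, whereas TYR, the defining enzyme of melanocytes, had no count in any library and the leukocyte marker PTPRC had at most 1.69 normalized read counts. The summed markers of keratinocytes (8 genes) were 384202 to 564256 normalized read counts per library, those of fibroblasts (5 genes) 608 to 982, of melanocytes (4 genes, 1 of them at 0 in all libraries) 56.5 to 100.3 and of leukocytes (3 genes) 0 to 3.97. Of the 8 keratinocyte markers 2 were higher and 4 lower in GCN2KO than in WT unwounded cells, and 4 were higher and 4 lower after HDW, without a single direction for basal or for suprabasal markers. Of the basal ones KRT5 was higher (1.41-fold unwounded and 1.43-fold after HDW) while KRT14 (0.556 and 0.585) and TP63 (0.697 and 0.742) were lower. Of the suprabasal ones involucrin (IVL) was higher (3.55-fold and 3.89-fold) and KRT1, at means of 11.2 to 22.4 normalized read counts, was lower (0.481 and 0.563), whereas KRT10 was 1.17-fold in unwounded cells, which did not pass the threshold, and 1.21-fold after HDW, which did. In such bulk RNA fewer cells of a type and less RNA per cell cannot be told apart. These markers moved with the genotype, and their part in the differences below was not tested.

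The GCN2KO libraries did not form even groups. On the first principal component of the 10 GCN2KO libraries, which held 33.7% of their variance, GCN2KO unwounded replicates 1, 3 and 5 lay at -27.0 to -31.6 whereas replicates 2 and 4 lay at -3.82 and -3.78, toward the GCN2KO HDW libraries at 12.8 to 21.8. GCN2KO HDW replicate 5 stood apart from the other 4 on the second component, at 24.7 against -2.56 to -17.4. Some values that rest on these libraries are given with and without them. Without replicates 2 and 4, HSPA1B (adjusted p = 0.0432 by edgeR) and BAG3 (0.0372) passed the threshold upon HDW in GCN2KO cells. HSPH1 (0.0724) no longer did, nor did HSF1 in unwounded GCN2KO against WT cells (0.071). With GCN2KO HDW replicate 5 left out as well, HSP90AA1 passed it upon HDW in GCN2KO cells (0.0452). Both sets were chosen after seeing the data. The labels name no batch.

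HSPA6 and HSPA8 were the members whose promoters held a full heat shock element, and HSPA1A and HSPA1B show how alike a neighbouring pair can be, so these 4 promoters are shown. Promoters are the 250 bases before the RefSeq start of each gene on GRCh38.p14, on the strand of the gene. The element searched is 3 units of GAA or its reverse complement TTC in alternation with 2 bases between units, starting with either unit, which covers both strands. Of the 9 members with a promoter in the RefSeq table, 2 held it, as did 0.441% of all 35116 promoters of the same length, and 5 of the 9 held at least 2 adjacent units, as did 11.6% of all promoters. Capitals mark the 3-unit elements of HSPA6 (chr1:161524290-161524539, plus strand) and HSPA8 (chr11:123062137-123062386, minus strand), and the 2 adjacent units in HSPA1A (chr6:31815293-31815542, plus strand) and HSPA1B (chr6:31827488-31827737, plus strand), where no 3-unit element was found.
HSPA6: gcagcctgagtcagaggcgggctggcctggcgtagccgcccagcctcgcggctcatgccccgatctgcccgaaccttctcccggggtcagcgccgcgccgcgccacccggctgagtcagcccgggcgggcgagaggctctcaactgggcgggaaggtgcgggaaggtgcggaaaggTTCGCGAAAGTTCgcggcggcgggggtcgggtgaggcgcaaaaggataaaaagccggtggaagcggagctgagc
HSPA8: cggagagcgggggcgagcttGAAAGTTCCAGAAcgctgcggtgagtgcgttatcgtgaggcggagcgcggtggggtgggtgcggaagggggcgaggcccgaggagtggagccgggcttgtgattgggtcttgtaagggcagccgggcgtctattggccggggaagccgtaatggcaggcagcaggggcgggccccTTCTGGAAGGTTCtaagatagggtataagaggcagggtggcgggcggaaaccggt
HSPA1A: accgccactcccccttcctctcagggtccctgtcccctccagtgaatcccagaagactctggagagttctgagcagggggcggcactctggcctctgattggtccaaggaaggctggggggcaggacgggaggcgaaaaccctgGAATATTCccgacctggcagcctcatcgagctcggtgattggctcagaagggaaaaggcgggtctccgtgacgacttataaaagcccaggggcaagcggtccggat
HSPA1B: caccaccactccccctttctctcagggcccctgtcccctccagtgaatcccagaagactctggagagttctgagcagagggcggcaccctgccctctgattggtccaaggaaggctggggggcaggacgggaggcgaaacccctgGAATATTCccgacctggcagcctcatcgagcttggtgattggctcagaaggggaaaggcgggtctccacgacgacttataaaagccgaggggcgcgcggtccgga
The element of HSPA6 ended 61 bases before the start, and the nearer of the 2 in HSPA8 ended 42 bases before it. HSPB1 held a single pair of units, and HSPH1, HSP90AA1, DNAJB1 and BAG3 held neither form in this window. These are matches of letters and not measured binding.

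Several members share sequence with other genes, which limits what a count of uniquely mapped reads can say. HSPA1A (chromosome 6, 31815543 to 31817946) and HSPA1B (chromosome 6, 31827738 to 31830254) are single-exon genes on the plus strand. Of the stretches of 150 bases, the read length, along HSPA1A, 69.4% were found unchanged in HSPA1B, and 66.1% of those along HSPA1B were found in HSPA1A. Reads from such stretches map to both genes, so the counts rest on the parts that differ and on mates that reach them. HSPA6 (chromosome 1, 161524540 to 161526894) is also a single exon on the plus strand. Of its stretches 15.3% were found in its neighbour HSPA7 (chromosome 1, 161606291 to 161608217), a pseudogene of the same family. A search for repeats anywhere outside HSPA6 gave 19.8%, all of them assigned to HSPA7 too. Why these shares differ was not tested. HSPA8 had 0.855% of repeated stretches, and the other members had 0. GENCODE release 44 places other genes over 3.87% of the exonic bases of HSP90AA1 (WDR20), 6.41% of DNAJB1 (TECR) and 2.58% of HSF1 (DGAT1), each on the other strand, and over 11.4% of HSPA8, an antisense RNA not listed in the files. Listed in the files are also SNORD14C and SNORD14D, over 1.81% and 1.79% of HSPA8 on its own strand, and a long noncoding RNA over 2.47% of HSF1 on the other strand. MIR639, not listed, lies over 1.2% of DNAJB1 on the other strand. Of the exonic bases of HSPB1, HSPH1, BAG3, HSPA1A and HSPA6 none lay in another gene, while 36.6% of HSPA1B lay in a long noncoding RNA on the same strand that is not listed in the files. Whether counting used the strand is not given in the sources used here.

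The levels of the members spanned more than 3 orders of magnitude in each WT group, and less in the GCN2KO groups. As CPM (read counts scaled to a common library size) per kb of exon, HSPB1 was highest in WT unwounded cells at 610.9 ± 75.9 (SD, n = 5), followed by HSPA8 at 143 ± 11.6, the constitutive HSP70, and HSP90AA1 at 132 ± 4.06, the inducible HSP90. HSPA8 and HSP90AA1 differed by less than the larger of their SDs. A middle tier held BAG3 at 40.2 ± 0.947, DNAJB1 at 39.2 ± 0.681 and HSPA1B at 37.3 ± 1.98 CPM per kb, whose neighbours differed by 1.07 and 0.976 times the larger SD. Such closeness rests on the length used. Per kb of the longest transcript, HSPA8 was at 301.3 and HSP90AA1 at 192 CPM, and DNAJB1 at 75.17 and BAG3 at 43.01. HSF1 at 17.6 ± 0.299 and HSPA1A at 16.9 ± 1.42 did not differ beyond their spread, and HSPH1 followed at 11.96 ± 0.8665. The levels of HSPA1A and HSPA1B can be too low, as uniquely mapped reads were divided by the full exon length. Of their stretches of 150 bases 69.4% and 66.1% are repeated, against 0 for HSF1, BAG3 and DNAJB1, so the places of the pair are uncertain. HSPA6, an HSP70 gene that most cells keep nearly silent until stressed, was last at 0.237 ± 0.0593 CPM per kb. It was last in each of the other groups too, though it reached 2.18 ± 0.699 in unwounded GCN2KO and 5.255 ± 2.001 in GCN2KO HDW cells.

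**Figure D1:**
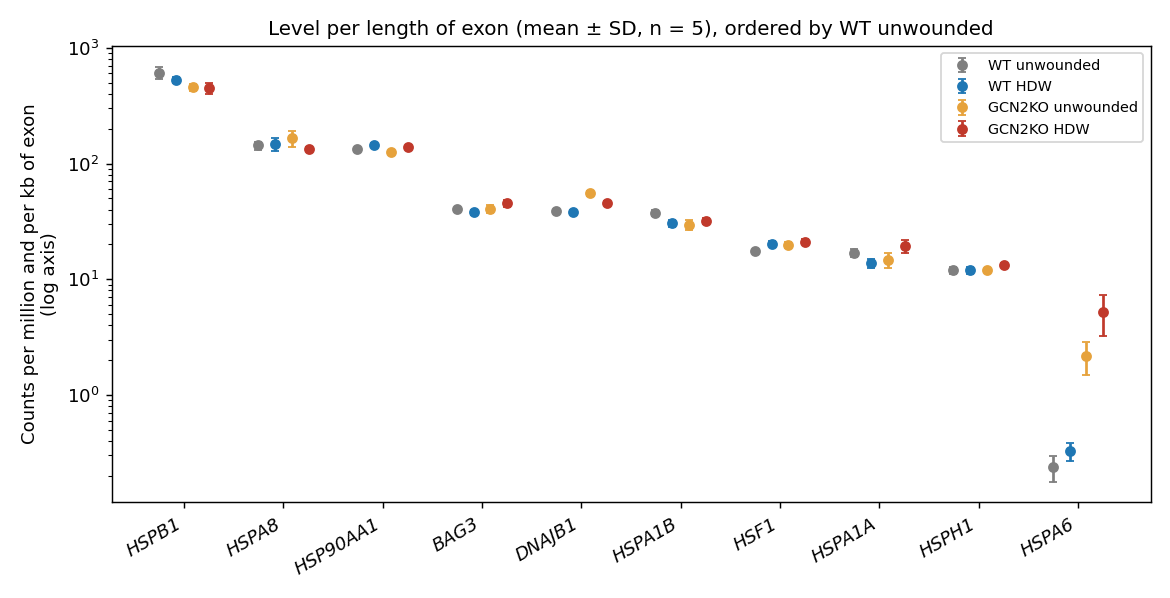
CPM per kb of exon (log axis) of the 10 genes in unwounded and HDW WT and then unwounded and HDW GCN2KO libraries, as mean ± SD of 5 libraries, ordered by the WT unwounded level. HSPB1 leads in every group (448 to 610.9), and HSPA6 is last in every group but is 2.18 and 5.255 in GCN2KO cells against 0.237 and 0.328 in WT cells. The levels of HSPA1A and HSPA1B can be too low, as reads that map to both genes are not counted.

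The order of the first and last members was the same in all 4 groups, while neighbours changed places. In GCN2KO HDW cells HSP90AA1 (138 ± 4.65 CPM per kb) and HSPA8 (134.5 ± 5.615) were again within their spread, and DNAJB1 (45.6 ± 1.62) and BAG3 (45.3 ± 3.035) were too. Per kb of the longest transcript neither pair was close in these cells, with HSP90AA1 at 199.9, HSPA8 at 282.8, DNAJB1 at 87.46 and BAG3 at 48.44 CPM. In GCN2KO unwounded cells DNAJB1 stood clear of BAG3, at 55.2 ± 2.45 against 40.8 ± 3.24 CPM per kb.

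Of the 10 genes HSPA6 had the largest difference between the genotypes. In WT unwounded libraries its normalized read counts, scaled with TMM library sizes of the 20 libraries, were 19.9, 14.3, 20.5, 11.1 and 14.46, and in WT HDW libraries 21.1, 22.7, 16.9, 27.9 and 22.5. In GCN2KO unwounded libraries they were 96.6, 143, 151, 224 and 124, and in GCN2KO HDW libraries 504, 409, 346, 383 and 137. Every GCN2KO library lay above every WT library, and GCN2KO HDW replicate 5 lay within the range of the GCN2KO unwounded libraries. The WT libraries held 8 to 28 reads of HSPA6 each, so the size of the fold change rests on few reads.

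The log2 fold change of HSPA6 in GCN2KO against WT was 3.25 (SE 0.255, adjusted p = 1.45e-08 by edgeR) in unwounded cells and 4.01 (SE 0.323, adjusted p = 8.35e-08 by edgeR) after HDW. Without GCN2KO unwounded replicates 2 and 4 the first was 2.996 (adjusted p = 1.80e-08 by edgeR), and without GCN2KO HDW replicate 5 the second was 4.22 (adjusted p = 1.02e-11 by edgeR). HDW raised HSPA6 in GCN2KO cells by 1.27 (SE 0.278, adjusted p = 0.00733 by edgeR), and in WT cells its value of 0.50 (SE 0.217, adjusted p = 0.0682 by edgeR) did not pass the threshold. The interaction, which tests whether the change upon HDW differs between the genotypes, was 0.76 (SE 0.538, adjusted p = 0.33 by edgeR), so a difference in the response was not detected. Without GCN2KO unwounded replicates 2 and 4 and GCN2KO HDW replicate 5, a set chosen after seeing the data, the interaction of HSPA6 was 1.21 (adjusted p = 0.004 by edgeR).

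HSPA7, the neighbouring pseudogene, followed the same order of groups. Its counts were 0 or 1 per library in WT unwounded and 1 to 4 in WT HDW cells, 5 to 31 in unwounded GCN2KO and 16 to 55 in GCN2KO HDW cells. As 19% of its own stretches of 150 bases are copies of HSPA6 sequence, how many of these reads came from HSPA6 was not tested. Summed with HSPA7, HSPA6 had a log2 fold change of 3.34 in unwounded cells (adjusted p = 1.24e-08 by edgeR) and of 4.06 after HDW (adjusted p = 6.19e-08 by edgeR) in GCN2KO against WT. The sum also passed the threshold for HDW in WT cells (0.54, adjusted p = 0.0325 by edgeR), where HSPA6 alone did not. That call rests on the 0 to 4 reads that HSPA7 adds per WT library. Summing the genes was chosen after seeing the data.

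The genes whose pattern was nearest to that of HSPA6 were sought among 12346 genes with a mean of at least 50 normalized read counts, by the root mean square difference of centred log2 values over the 20 libraries. They were TUBB2A, a β-tubulin gene, at 0.42, HMOX1, the gene of heme oxygenase, at 0.489, and RNF223, a RING finger gene, at 0.559, where HSPA6 itself had a spread of 1.86. Mean normalized read counts in unwounded and HDW WT and then unwounded and HDW GCN2KO cells were 71.7, 112, 659 and 937 for TUBB2A. For HMOX1 they were 109, 88.2, 1237 and 1762.

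**Figure D2:**
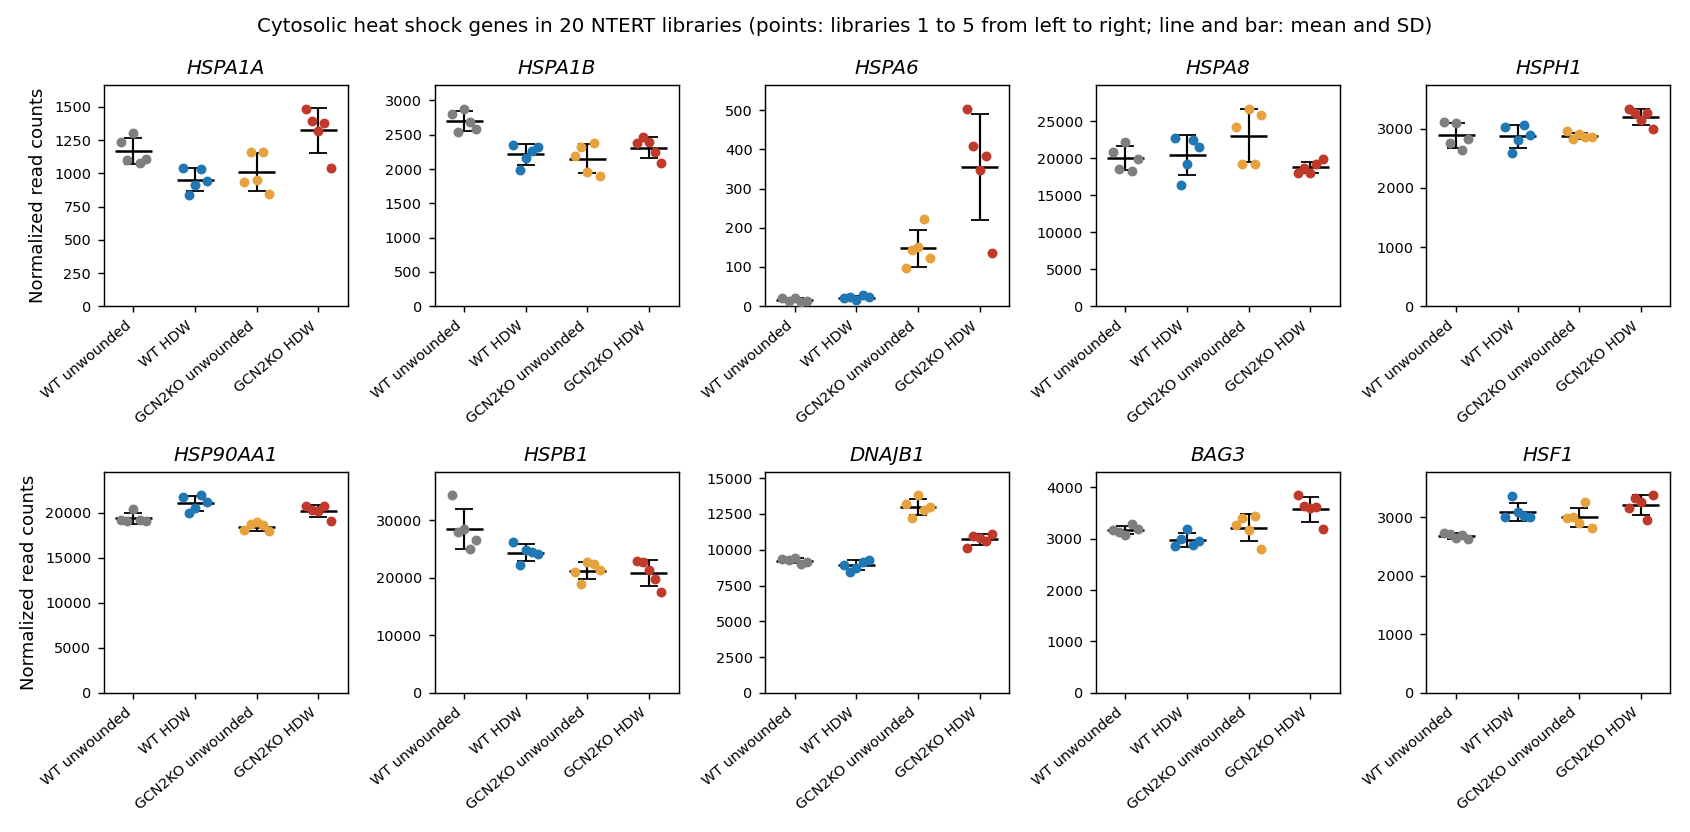
Normalized read counts of each of the 10 genes (linear axes from 0) in the 5 libraries of each group, with the mean and SD. HSPA6 is between 11.1 and 27.9 in WT libraries and between 96.6 and 504 in GCN2KO libraries, while the other 9 genes keep within 1 order of magnitude across all libraries.

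HSPA1A and HSPA1B are the stress-inducible HSP70 pair. HDW lowered both in WT cells, and it raised HSPA1A in GCN2KO cells. HSPA1A had 1238, 1101, 1301, 1081 and 1105 normalized read counts in WT unwounded and 1042, 836, 912, 1035 and 940.1 in WT HDW libraries. In GCN2KO unwounded libraries it had 938, 1159, 951, 1164 and 846, and in GCN2KO HDW libraries 1487, 1395, 1318, 1383 and 1044. All WT HDW libraries lay below all WT unwounded ones, whereas 4 of 5 GCN2KO HDW libraries lay above all GCN2KO unwounded ones and replicate 5 did not.

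HDW lowered HSPA1A in WT cells by a log2 fold change of -0.29 (SE 0.0665, adjusted p = 0.0019 by edgeR) and raised it in GCN2KO cells by 0.40 (SE 0.107, adjusted p = 0.018 by edgeR). The interaction was 0.68 (SE 0.133, adjusted p = 6.04e-04 by edgeR), with 0.49 to 0.90 over 31 alternatives, the lowest being the summed pair. After HDW HSPA1A exceeded its WT level in GCN2KO cells by 0.48 (SE 0.0866, adjusted p = 2.00e-04 by edgeR), although the lowest GCN2KO library (1044) lay just above the highest WT library (1042). In unwounded cells the value of -0.20 (SE 0.0929, adjusted p = 0.0677 by edgeR) did not pass the threshold.

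GCN2KO unwounded replicates 2 and 4, at 1159 and 1164 normalized read counts of HSPA1A, lay above the other 3 at 846 to 951. Without them HSPA1A was lower in GCN2KO than in WT unwounded cells by a log2 fold change of -0.35 (adjusted p = 0.00124 by edgeR), and rose upon HDW in GCN2KO cells by 0.55 (adjusted p = 0.00179 by edgeR). Replicates 2 and 4 were picked after seeing the data and lay within the ranges of the WT unwounded and GCN2KO HDW libraries. Leaving them out therefore widens both differences, and these p-values are not independent of that choice.

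HSPA1B had more counts than HSPA1A in each library. It had 2537 to 2880 normalized read counts in WT unwounded (mean 2699 ± 143, SD, n = 5), 1981 to 2350.3 in WT HDW (2214 ± 149), 1905 to 2380.4 in unwounded GCN2KO (2149 ± 214) and 2081 to 2463 in GCN2KO HDW libraries (2313 ± 151). The WT unwounded libraries lay above all others. HSPA1B fell upon HDW in WT cells (log2 fold change -0.29, SE 0.0487, adjusted p = 1.46e-04 by edgeR) and was lower in GCN2KO than in WT unwounded cells (-0.33, SE 0.0742, adjusted p = 0.00106 by edgeR). Its change upon HDW in GCN2KO cells (0.12, SE 0.0778, adjusted p = 0.285 by edgeR) and its difference between the genotypes after HDW (0.06, SE 0.0552, adjusted p = 0.307 by edgeR) did not pass the threshold. The interaction of HSPA1B was 0.39 (SE 0.0935, adjusted p = 0.00336 by edgeR).

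HSPA1B made up 69.9% ± 0.938 (SD, n = 5) of the summed counts of the pair in WT unwounded and 69.9% ± 0.9985 in WT HDW libraries. It made up 68.1% ± 1.48 in GCN2KO unwounded and 63.7% ± 2.06 in GCN2KO HDW libraries. The Wilson 95% interval of a library, which covers counting error only, reached at most 2.04 points to either side. The share was lower after HDW in GCN2KO than in WT cells (difference -6.25 points, two-sided exact permutation test, p = 0.00794, the smallest that 5 against 5 allow, and 0.0127 adjusted over 8 such tests). It was also lower upon HDW in GCN2KO cells (-4.39 points, exact permutation p = 0.00794, adjusted 0.0127) and not detectably different upon HDW in WT cells (0.0477 points, exact permutation p = 0.96). In unwounded cells it differed between the genotypes by -1.81 points (exact permutation p = 0.0714, adjusted 0.0907).

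Fitted as a single feature, the summed pair had an interaction of 0.49 (adjusted p = 0.00117 by edgeR), and its rise upon HDW in GCN2KO cells no longer passed the threshold (0.21, adjusted p = 0.0818 by edgeR). In GCN2KO against WT unwounded cells the sum was lower by -0.29 (adjusted p = 0.00421 by edgeR).

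**Figure D3:**
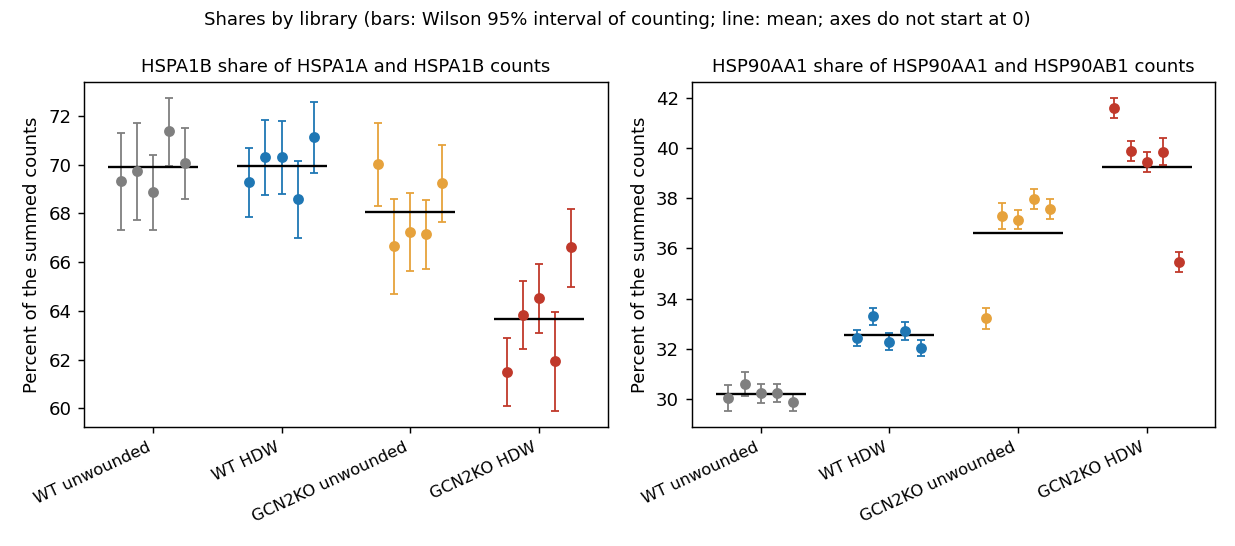
Share of HSPA1B in the summed HSPA1A and HSPA1B counts (left) and of HSP90AA1 in the summed HSP90AA1 and HSP90AB1 counts (right), in percent, for each library with its Wilson 95% interval of counting, and the group mean as a line. The HSPA1B share is lowest in GCN2KO HDW libraries (61.5% to 66.6%), and the HSP90AA1 share is higher in every GCN2KO library than in the WT libraries of the same wounding state, with GCN2KO unwounded replicate 1 (33.2%) and GCN2KO HDW replicate 5 (35.5%) below the others of their groups.

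HSPA8, the constitutive HSP70 that also uncoats clathrin vesicles, showed no difference between the genotypes that passed the threshold. It had 18332 to 22213 normalized read counts in unwounded WT, 16358 to 22661 in WT HDW and 18008.5 to 19854 in GCN2KO HDW libraries. The GCN2KO unwounded libraries fell apart, with 24171, 26692 and 25768 in replicates 1, 3 and 5 against 19220.5 and 19269 in replicates 2 and 4. Its fall upon HDW in GCN2KO cells was -0.29 on the log2 scale (SE 0.0933, adjusted p = 0.0406 by edgeR), a call lost in 8 of 22 alternatives, and without replicates 2 and 4 it was -0.44 (adjusted p = 3.40e-04 by edgeR). Without these libraries HSPA8 was also higher in GCN2KO than in WT unwounded cells, by 0.36 (adjusted p = 5.34e-04 by edgeR), against 0.21 (SE 0.0986, adjusted p = 0.0726 by edgeR) with all 5. The interaction of HSPA8 was -0.33 (SE 0.132, adjusted p = 0.0723 by edgeR), and -0.48 (adjusted p = 0.002 by edgeR) without replicates 2 and 4. These replicates were picked after seeing the data and lay within the ranges of the WT unwounded and GCN2KO HDW libraries. Leaving them out therefore widens these differences, and the p-values without them are not independent of that choice.

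DNAJB1, the J-domain partner that hands clients to HSP70, was higher in GCN2KO cells in both wounding states. It had 8994 to 9412 normalized read counts in WT unwounded libraries, 8455 to 9310 in WT HDW, 12226 to 13797 in unwounded GCN2KO and 10151 to 11116 in GCN2KO HDW libraries. The groups of the 2 genotypes did not overlap, and neither did the wounding states of GCN2KO cells. The log2 fold change of DNAJB1 in GCN2KO against WT was 0.50 (SE 0.0585, adjusted p = 1.52e-06 by edgeR) unwounded and 0.27 (SE 0.0396, adjusted p = 2.99e-05 by edgeR) after HDW. Upon HDW it fell in GCN2KO cells by -0.26 (SE 0.0586, adjusted p = 0.00768 by edgeR), while the change in WT cells of -0.05 (SE 0.0332, adjusted p = 0.202 by edgeR) did not pass the threshold. The interaction was -0.22 (SE 0.0651, adjusted p = 0.014 by edgeR), or -0.16 (adjusted p = 0.0606 by edgeR) with library size as the only scaling, and it was also lost with no filter (-0.23, adjusted p = 0.0984 by edgeR).

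HSPH1, an HSP110 protein that exchanges the nucleotide of HSP70, had means of 2886 ± 209 (SD, n = 5), 2875 ± 195, 2884 ± 50.1 and 3202 ± 134.5 normalized read counts in unwounded and HDW WT and then unwounded and HDW GCN2KO libraries. The mean was highest in the last group, whose libraries overlapped those of WT HDW cells. HSPH1 exceeded its WT level in GCN2KO cells after HDW (log2 fold change 0.16, SE 0.0497, adjusted p = 0.0118 by edgeR). Its rise upon HDW in GCN2KO cells (0.16, SE 0.0549, adjusted p = 0.0474 by edgeR) lay close to the threshold and passed it in 9 of 22 alternatives.

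BAG3, an exchange factor that directs HSP70 clients to autophagy, had means of 3166 ± 74.5 (SD, n = 5) in WT unwounded and 2972 ± 136 in WT HDW libraries. It had 3213 ± 254.8 in unwounded GCN2KO and 3567 ± 239 in GCN2KO HDW libraries, in which replicate 5 of each group was the lowest, at 2803 and 3180.4. BAG3 exceeded its WT level in GCN2KO cells after HDW (log2 fold change 0.26, SE 0.0504, adjusted p = 3.14e-04 by edgeR). The unwounded difference was 0.02 (SE 0.0654, adjusted p = 0.754 by edgeR). It fell slightly upon HDW in WT cells (-0.09, SE 0.0361, adjusted p = 0.0402 by edgeR) in the main test, a call lost in 12 of 20 alternatives. The interaction of BAG3 was 0.24 (SE 0.0807, adjusted p = 0.031 by edgeR), a call lost in 6 of 31 alternatives.

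HSPB1, the small heat shock protein HSP27, was lower in GCN2KO cells. Its normalized read counts were 25052 to 34362 in WT unwounded (mean 28505 ± 3539.9, SD, n = 5) and 22342 to 26262 in WT HDW libraries (24426 ± 1415). In GCN2KO unwounded libraries they were 18897 to 22788 (21292 ± 1521) and in GCN2KO HDW libraries 17519 to 22901 (20888 ± 2275). The unwounded groups did not overlap, and the HDW groups did. The log2 fold change of HSPB1 was -0.42 (SE 0.0876, adjusted p = 5.27e-04 by edgeR) in unwounded cells and -0.23 (SE 0.0693, adjusted p = 0.00961 by edgeR) after HDW. HDW lowered HSPB1 in WT cells by -0.23 (SE 0.0707, adjusted p = 0.0147 by edgeR). In GCN2KO cells the change was -0.02 (SE 0.0817, adjusted p = 0.899 by edgeR), and a difference between these responses was not detected (interaction 0.19, SE 0.114, adjusted p = 0.229 by edgeR).

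HSP90AA1, the inducible cytosolic HSP90, varied little. Its mean normalized read counts were 19374 ± 595 (SD, n = 5) in unwounded WT, 21049 ± 828 in WT HDW, 18437 ± 431 in unwounded GCN2KO and 20169 ± 681 in GCN2KO HDW libraries. It rose upon HDW in WT cells by a log2 fold change of 0.12 (SE 0.0356, adjusted p = 0.0125 by edgeR). In GCN2KO cells the value was 0.14 (SE 0.0567, adjusted p = 0.0861 by edgeR), with all HDW libraries above all unwounded ones. Between the genotypes it was -0.07 (SE 0.0587, adjusted p = 0.323 by edgeR) unwounded, where the groups did not overlap, and -0.06 (SE 0.041, adjusted p = 0.192 by edgeR) after HDW.

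HSP90AB1, its constitutive partner, is not among the 10 genes and was set beside it. It had means of 44811 and 43648 normalized read counts in WT unwounded and WT HDW cells, and of 31985 and 31279 in the GCN2KO groups. HSP90AA1 therefore made up 30.2% ± 0.268 (SD, n = 5) and 32.55% ± 0.483 of the counts of both HSP90 genes in WT unwounded and WT HDW libraries, and 36.6% ± 1.94 and 39.25% ± 2.28 in the corresponding GCN2KO libraries. In GCN2KO cells the share exceeded that of WT cells by 6.45 points unwounded and by 6.705 points after HDW, and upon HDW it was 2.36 points higher in WT cells (exact permutation p = 0.00794 and adjusted p = 0.0127 for each). Upon HDW in GCN2KO cells it differed by 2.62 points (exact permutation p = 0.0794, adjusted 0.0907). Without GCN2KO HDW replicate 5 this difference was 3.56 points (exact permutation, adjusted p = 0.0212).

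HSF1, the transcription factor of the heat shock response, which is controlled largely at the protein level, had means of 2683 ± 45.6 (SD, n = 5), 3095 ± 151, 2999 ± 168 and 3215 ± 170.5 normalized read counts in unwounded and HDW WT and then unwounded and HDW GCN2KO libraries. WT unwounded libraries, at 2623 to 2731, lay below all others. HSF1 rose upon HDW in WT cells (log2 fold change 0.20, SE 0.0371, adjusted p = 2.77e-04 by edgeR). It was higher in GCN2KO than in WT unwounded cells by 0.16 (SE 0.0588, adjusted p = 0.0211 by edgeR), a call lost in 7 of 21 alternatives. After HDW the difference was 0.06 (SE 0.0465, adjusted p = 0.294 by edgeR), and the interaction was -0.11 (SE 0.0709, adjusted p = 0.299 by edgeR).

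**Figure D4:**
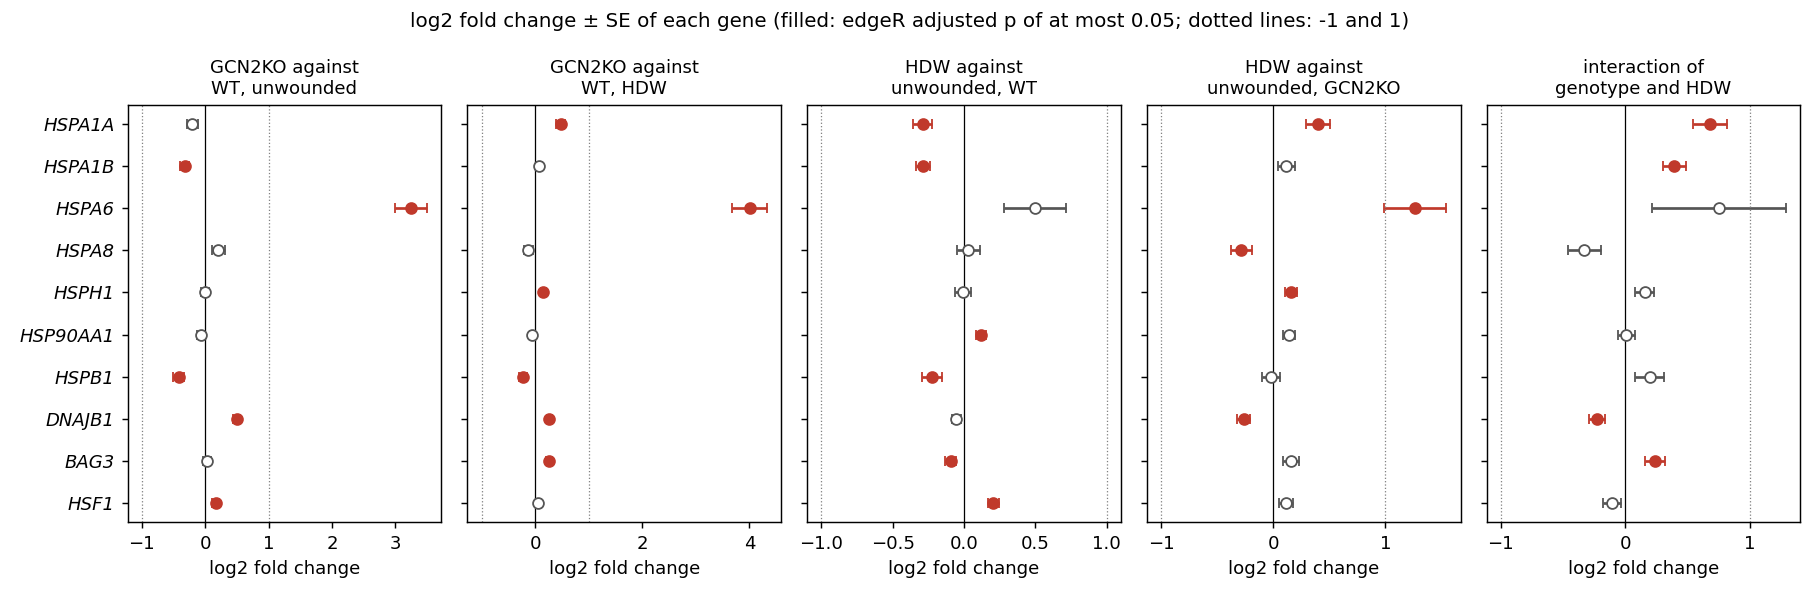
log2 fold change ± SE of each of the 10 genes in the 4 comparisons and the interaction, with filled points where the edgeR adjusted p is at most 0.05 and dotted lines at -1 and 1. HSPA6 is the only member past a dotted line, in GCN2KO against WT unwounded (3.25) and after HDW (4.01) and upon HDW in GCN2KO cells (1.27); each panel has its own horizontal scale.

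Counted over the 10 genes, GCN2KO against WT in unwounded cells gave 3 higher and 2 lower at an adjusted p of at most 0.05, where 33.4% of all 15348 genes tested were higher and 33.1% lower. HSPA6 was the DE gene among them, where a DE gene also changed at least 1 log2 unit up or down, as did 16.4% of all genes tested. After HDW 5 members were higher and 1 lower in GCN2KO cells, where 35.9% and 35.8% of 15855 genes were, and HSPA6 was again the DE gene, against 14.9% of all. The median log2 fold change of the 10 was 0.0141 in unwounded cells and 0.11 after HDW, beside 0.00424 and 0.00197 over all genes tested.

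Upon HDW in WT cells 2 members were higher and 4 lower, where 26.1% of all 15348 genes were higher and 25.2% lower, and the median of the 10 was -0.0297. No member was a DE gene, as the largest value in size was 0.50, whereas 4.17% of all genes were, and DESeq2 also called none. Upon HDW in GCN2KO cells 3 were higher and 2 lower, where 11.9% and 10.8% of 15791 genes were. HSPA6 was the DE gene, against 0.671% of all genes, and the median of the 10 was 0.128. With GCN2KO unwounded replicates 2 and 4 and GCN2KO HDW replicate 5 left out, 8 of the 10 passed the adjusted p, and with any one of GCN2KO unwounded replicates 1, 3 and 5 or GCN2KO HDW replicates 1 to 4 left out 3 did. In the interaction 3 members were higher (HSPA1A, HSPA1B and BAG3) and 1 lower (DNAJB1), where 11.2% and 12.5% of 16536 genes were, and no member also reached a log2 value of 1 in size by edgeR or DESeq2, which 3.31% of all genes did. Without the same 3 libraries, HSPA6 did. Shares over all genes in these reduced sets are not given here, so the counts from them cannot be read as particular to the members.

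**Figure D5:**
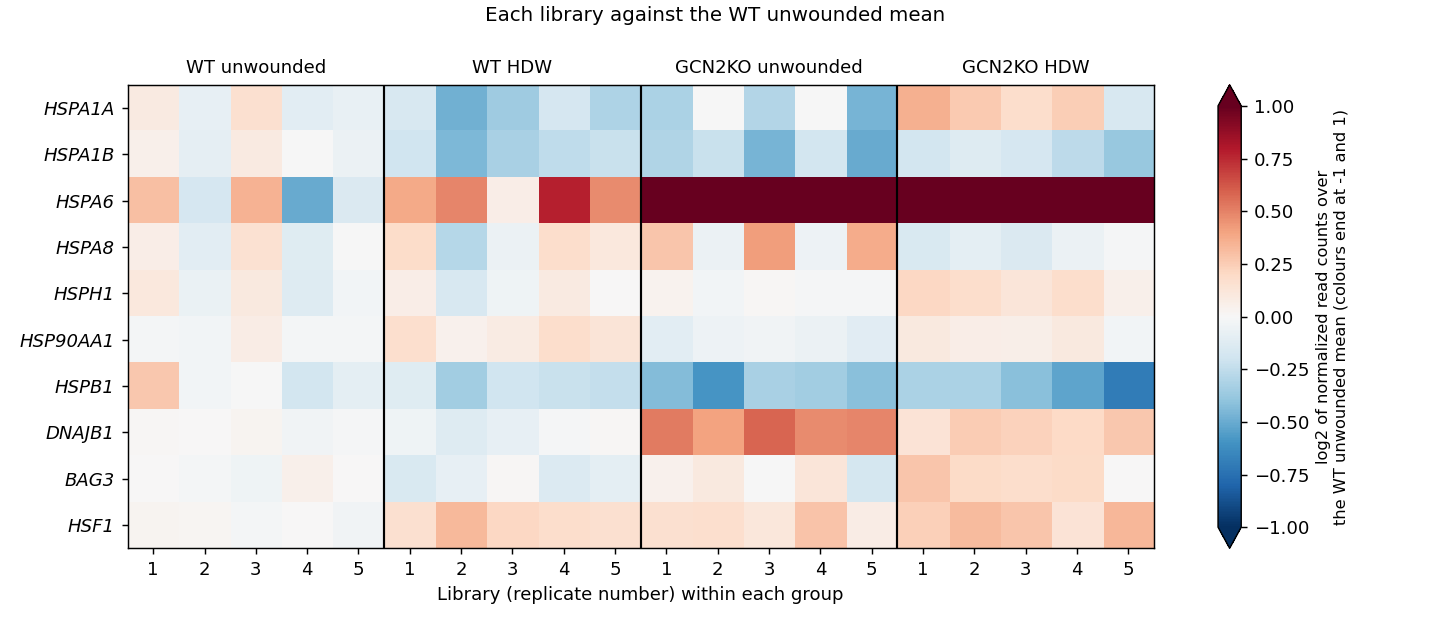
log2 ratio of the normalized read counts of each library to the WT unwounded mean, for 10 genes (rows) and 20 libraries (columns, replicates 1 to 5 within each group); colours end at -1 and 1. HSPA6 exceeds the scale in all 10 GCN2KO libraries, DNAJB1 is raised in all 10, and in GCN2KO unwounded cells replicates 2 and 4 differ from 1, 3 and 5 in HSPA1A and HSPA8.

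The other chaperone genes came from 8 lists of 60 genes in all, chosen with earlier results of these data known. Of these, 52 were tested between GCN2KO and WT unwounded cells, of which 28 were higher and 10 lower, beside 33.4% and 33.1% of all genes, with a median of 0.227 on the log2 scale. After HDW 30 were higher and 13 lower of 52, beside 35.9% and 35.8% of all genes, with a median of 0.173. Upon HDW in WT cells 18 were higher and 16 lower of 51 (median -0.00557), beside 26.1% and 25.2% of all genes. In GCN2KO cells 4 were higher and 7 lower of 52 (median -0.0143), beside 11.9% and 10.8%. In the interaction 9 were higher and 6 lower of 52 (median -0.0452), beside 11.2% and 12.5%. The tested genes include HSPB8 and, in unwounded cells, CRYAB, which would not have passed the filter on low counts without the GCN2KO libraries.

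J-domain proteins of the cytosol and nucleus, the partners that load HSP70, were higher in 6 and lower in 1 of 8 genes in GCN2KO against WT unwounded cells, and in 7 and 1 of 8 after HDW, with medians of 0.332 and 0.333. The shares over all genes were 33.4% higher and 33.1% lower unwounded and 35.9% and 35.8% after HDW. DNAJB6, which keeps polyglutamine proteins soluble, was higher in GCN2KO cells after HDW by 0.53 (SE 0.0345, adjusted p = 1.07e-08 by edgeR). DNAJB2, of the same family, was higher by 0.63 (SE 0.0538, adjusted p = 1.45e-07 by edgeR). Both were also higher unwounded, by 0.44 (SE 0.0656, adjusted p = 2.11e-05 by edgeR) and 0.39 (SE 0.0673, adjusted p = 9.84e-05 by edgeR). DNAJB6 fell upon HDW in WT cells by -0.38 (SE 0.0313, adjusted p = 1.07e-07 by edgeR). It also fell in GCN2KO cells, by -0.26 (SE 0.0648, adjusted p = 0.0124 by edgeR). DNAJA1, an HSP70 partner in protein folding and import, had an interaction of 0.57 (SE 0.0842, adjusted p = 2.65e-05 by edgeR), with means of 5113 and 3750 normalized read counts in WT unwounded and WT HDW cells and of 4125 and 4501 in the GCN2KO groups. DNAJB5 had the opposite sign, -0.84 (SE 0.168, adjusted p = 7.36e-04 by edgeR), from 154 to 269.5 in WT and from 179 to 176 in GCN2KO cells.

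Of the other small heat shock proteins 2 of 8 passed the filter on low counts between the genotypes, CRYAB and HSPB8. CRYAB, αB-crystallin, had means of 11.98 and 15.8 normalized read counts in WT unwounded and WT HDW cells and of 42.3 and 49.6 in the GCN2KO groups. WT unwounded libraries held 3 to 16 of its reads, too few to pass the filter without the GCN2KO libraries. Its log2 fold change in unwounded cells, 1.78 (SE 0.235), is therefore given as a description. After HDW it was 1.62 (SE 0.176, adjusted p = 1.45e-06 by edgeR). HSPB8, which forms a complex with BAG3, had 0 to 2 reads in each WT library, 13 to 34 in unwounded GCN2KO and 15 to 47 in GCN2KO HDW libraries. It entered the test only through the GCN2KO libraries, so its values are given as a description. All GCN2KO libraries lay above all WT libraries for both genes. HSPA12A, a distant HSP70 relative, was a DE gene after HDW (1.42, SE 0.0896, adjusted p = 8.56e-09 by edgeR) and fell just short of the fold threshold in unwounded cells (0.995, SE 0.109, adjusted p = 6.58e-07 by edgeR).

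Among the further lists, the other HSP70 and HSP110 genes were higher in 3 and lower in 1 of 6 in GCN2KO against WT unwounded cells, and higher in 3 and lower in 0 of 6 after HDW. For this and the following lists the shares over all genes are again 33.4% higher and 33.1% lower unwounded, and 35.9% and 35.8% after HDW. HSP70 cochaperones were higher in 4 and lower in 1 of 8 unwounded, and in 4 and 2 after HDW. BAG1, an HSP70 exchange factor, was lower in GCN2KO than in WT unwounded cells (-0.57, SE 0.0671, adjusted p = 1.43e-06 by edgeR) and fell upon HDW in WT cells by -0.58 (SE 0.0414, adjusted p = 2.38e-08 by edgeR). In GCN2KO cells it fell by -0.26 (SE 0.061, adjusted p = 0.0109 by edgeR), and the interaction was 0.31 (SE 0.0727, adjusted p = 0.00306 by edgeR). HSP90 and its cochaperones were higher in 4 and lower in 3 of 8 unwounded, and in 5 and 3 after HDW. FKBP5, a glucocorticoid-responsive HSP90 cochaperone, fell upon HDW in WT cells (-0.51, SE 0.0313, adjusted p = 4.50e-09 by edgeR).

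The TRiC chaperonin, the ring that folds actin and tubulin, was higher in 3 and lower in 2 of 8 subunits unwounded, near the shares of 33.4% and 33.1% over all genes, and in 2 and 5 after HDW, beside 35.9% and 35.8%. Its subunit CCT4 fell upon HDW in GCN2KO cells (-0.33, SE 0.081, adjusted p = 0.0121 by edgeR). Heat shock factors and their regulators were higher in 2 and lower in 1 of 5 unwounded, and in 4 and 1 after HDW. Other heat shock induced genes were higher in 4 and lower in 1 of 7 unwounded, and in 3 and 1 after HDW. UBB, a polyubiquitin gene of this list, fell upon HDW in GCN2KO cells (-0.44, SE 0.0999, adjusted p = 0.00878 by edgeR). UBB also fell upon HDW in WT cells (-0.39, SE 0.0351, adjusted p = 2.72e-07 by edgeR).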

How the data were processed

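RNA from 20 libraries of NTERT cells (WT and GCN2KO, each unwounded and HDW, 5 per group) was sequenced as 150-base read pairs. Per the submitters' processing notes and the study's methods, the authors trimmed reads with Trimmomatic, aligned them to GRCh38 with STAR and deposited whole-number read counts of uniquely mapped reads per gene from featureCounts, 57500 genes per library. Strandedness and the annotation release are not given in the sources used here. Replicates were not pooled.

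Counts were tested with edgeR 4.0.16 (quasi-likelihood, TMM, filterByExpr with a minimum count of 10) in R 4.3.3, within the 2 groups compared, or all 4 groups for the interaction, and p-values were adjusted by the Benjamini-Hochberg method over all genes tested. An SE is the log2 fold change divided by the square root of its F statistic. Normalized read counts use TMM library sizes over all 20 libraries. Shares of counts were compared with exact permutation tests (scipy 1.17.1), two-sided. Gene positions and lengths came from GENCODE release 44, in which 56410 of the listed genes were found, and promoters from RefSeq. Scripts were tested on simulated data. All 10 members are reported. Of the other chaperones, those past both thresholds and the 3 with the smallest adjusted p per comparison are named, with EIF2AK4 and the 3 genes nearest in pattern to a member past both thresholds. The members and lists were chosen with earlier results of these data known. The sources do not say that a replicate number marks a shared culture or day, and the main tests have no replicate block. DESeq2 1.42.0, other scalings and filters, thinning, a replicate block and leaving out libraries were the alternatives. Leaving out GCN2KO unwounded replicates 2 and 4, alone or with GCN2KO HDW replicate 5, and summing HSPA6 with HSPA7 were chosen after seeing the data.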

Additional observations from a re-analysis of the deposited data

Results flagged for a closer look

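HSP90AA1 in WT unwounded replicate 3 stood away from the other libraries of its group, with a gap of 0.93 of the group's range, at 20435 normalized read counts against 19045 to 19143 in the other 4. HSF1 in WT HDW replicate 2 did so with a gap of 0.746, at 3358 against 3000.3 to 3091. These are 2 of 40 groups examined, and chance alone flags about 1 in 20.

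The change upon HDW differed between the genotypes for 4 of the 10 genes by the edgeR interaction test. Of all 16536 genes tested, 11.2% were higher and 12.5% lower in it. The interaction was 0.68 for HSPA1A, 0.39 for HSPA1B, -0.22 for DNAJB1 and 0.24 for BAG3 on the log2 scale. The calls of DNAJB1 and BAG3 were lost in some of the alternatives, as given above.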

How the results depend on the processing

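Of 1133 values of single genes recomputed under an alternative, 1025 kept their direction and side of the threshold, 50 lost a call, 32 gained one and 26 changed sign. Of 324 recomputed counts, shares and orders 303 were taken as the same by a looser rule for counts. It let a count move somewhat, such as 6 members in place of 4 in the interaction without GCN2KO unwounded replicates 2 and 4 and GCN2KO HDW replicate 5. The sign changes were all of small values that passed no threshold. In GCN2KO against WT unwounded cells HSPH1 was -0.0333 with library size alone, -0.003226 with no filter, -1.007e-05 with all 20 samples in one fit and -0.03117 to 0.02461 with 1 library left out, and BAG3 was -0.01206 with library size alone, -0.002473 after thinning and -0.03844 without replicates 2 and 4. Upon HDW in WT cells HSPA8 was -0.009681 with library size alone and -0.008668 to 0.09873 with 1 library left out, and HSPH1 was 0.007464 with no filter, 0.01753 after thinning and -0.03994 to 0.02893 with 1 left out. With 1 left out HSPB1 upon HDW in GCN2KO cells was -0.06063 to 0.03848, the interaction of HSP90AA1 -0.01114 to 0.02996, and the HSPA1B share -0.2543 to 0.418 points upon HDW in WT cells and -2.303 to -1.442 in unwounded GCN2KO against WT cells, and the HSP90AA1 share upon HDW in GCN2KO cells 1.76 to 3.564 points. The causes were not tested.

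Upon HDW in GCN2KO cells 5 members passed, 3 with the replicate block, 3 to 5 with 1 library left out and 8 without GCN2KO unwounded replicates 2 and 4 and GCN2KO HDW replicate 5, where 1 member also passed both thresholds in the interaction. Shares over all genes under these settings are not given here. With the replicate block HSPA8 (adjusted p = 0.0833) and HSPH1 (0.137) lost that call, BAG3 lost its call upon HDW in WT cells (0.0674) and HSPA8 gained one in unwounded GCN2KO against WT cells (0.0236), by edgeR. Deviations of samples of the same number had mean correlations of 0.0228, 0.0332, 0.0107 and -0.109 in the 4 comparisons, with 1 pair over 0.1, upon HDW in WT cells. Levels per kb of the longest transcript changed the place of 4, 4, 4 and 6 members in WT unwounded, HDW-treated WT, unwounded GCN2KO and GCN2KO HDW cells. Scaling by library size alone moved the share of higher genes among all called in the interaction from 47.1% to 62.1%. Depth limits HSPA6 in WT cells, at 8 to 28 reads per library.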
